A study of Drosophila melanogaster with 3 samples.

Results

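The cytosolic ribosomal protein genes of Drosophila melanogaster are described here as targets of CG4424, a zinc finger protein. They were chosen by symbol as the protein-coding genes named RpL, RpLP or RpS followed by a number, together with sta, which encodes the small subunit protein RpSA. The rule gave 93 genes of 13945 protein-coding genes on the 6 chromosome arms, 54 for proteins of the large ribosomal subunit and 39 for proteins of the small subunit. Chromatin immunoprecipitation followed by sequencing with an anti-GFP antibody was made on whole embryos, pooled male and female, aged 0 to 16 h, of a transgenic line that stably carries CG4424 fused at its C terminus to GFP. The 3 biological replicates, each with 1 technical replicate, form 1 group, so no condition is compared, and the measurements say where along each gene the tagged protein was recovered. Whole embryos mix all cell types of these stages, so fewer cells with the protein at a gene and less of it per cell cannot be told apart.

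Every cytosolic ribosome holds a single copy of nearly all of these proteins around its ribosomal RNAs, and growing cells make them in matched amounts. In flies, loss of a copy of many of these genes gives the Minute phenotype of slow growth and thin bristles. Their promoters are compact and strongly used, and many begin transcription at a polypyrimidine initiator, also called TCT, in place of the common initiator. The factors TRF2, M1BP and DREF are known to act at such promoters in flies.

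A gene was called occupied when the summit of a region, the base of its highest signal, lay within 500 bp of any annotated transcription start of the gene. The optimal list holds the 6420 regions that passed the authors' reproducibility threshold. Of the 93 ribosomal protein genes, 72 were occupied by an optimal region (77.4%, exact binomial 95% interval 67.6 to 85.4), where 24.9% of all protein-coding genes were. The other protein-coding genes were occupied in 3397 of 13852 cases (24.5%), and the 73 genes for proteins of the mitochondrial ribosome, which is a separate machine, in 38 (52.1%, interval 40.04 to 63.9). In each replicate the 6420 strongest regions were taken for a list of equal length. They occupied 71 ribosomal protein genes in replicate 1, where 25.8% of all protein-coding genes were occupied, 70 in replicate 2, where 25.6% were, and 69 in replicate 3, where 23.6% were. The mean was 75.3% ± 1.08 for ribosomal protein genes and 24.6% ± 1.24 for other protein-coding genes (SD, n = 3 each), so the distance between them was far larger than the spread between replicates. No p-value is given for any count over these genes, because they were singled out with earlier results of the same data known.

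The longer lists reached almost all of these genes. A summit of the relaxed list, called on the pooled reads and holding 29056 regions of all strengths, lay at 87 of the 93 genes, where 50.5% of all protein-coding genes had one. The full list of replicate 1 had a summit at 85 of the 93 genes against a background of 45.2%, that of replicate 2 at 87 against 52.5%, and that of replicate 3 at 87 against 49.7%. Of the 72 occupied genes, 64 were also reached by the strongest regions of all 3 replicates, 5 by those of 2 replicates, 2 by those of 1, and 1 by those of none. The last was RpL36A, whose optimal region had a signal of 217.1, and which had no summit in the full list of replicate 2.

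**Figure D1:**
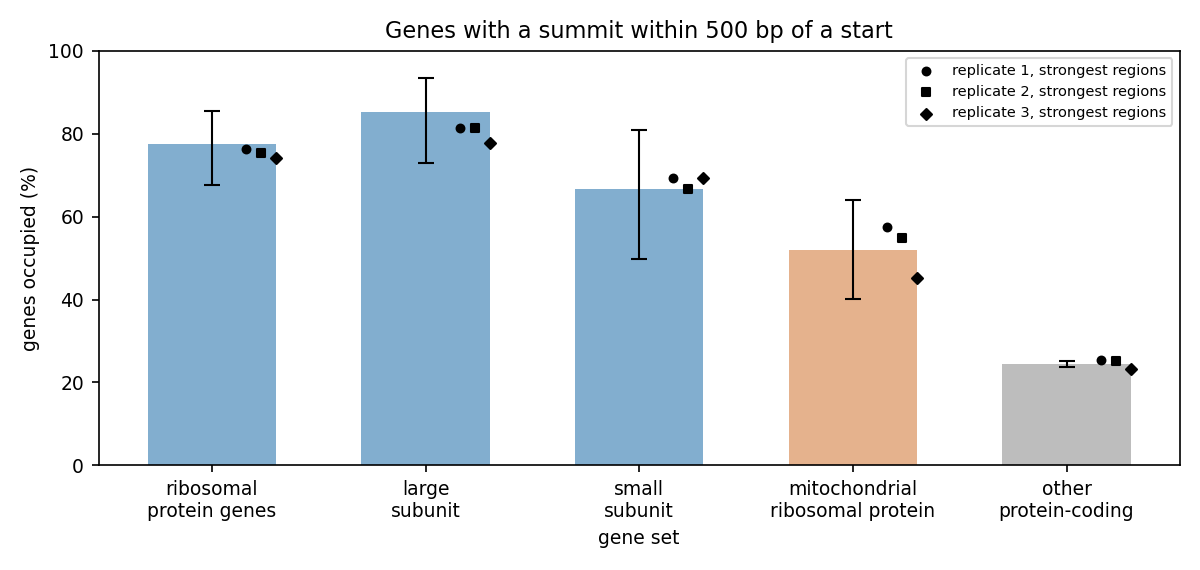
Share of genes with a summit within 500 bp of a start, in percent, by gene set. Bars are the optimal list with exact 95% binomial intervals, and the points are the 6420 strongest regions of each replicate; the ribosomal protein genes stand at 77.4% and the other protein-coding genes at 24.5%.

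Large subunit genes were occupied more often than small subunit genes in the optimal list, and the size of that gap depended on how regions were counted. Of the 54 large subunit genes 46 were occupied (85.2%, interval 72.9 to 93.4), and of the 39 small subunit genes 26 were (66.7%, interval 49.8 to 80.9), a gap of 18.5 percentage points. In the strongest regions of the replicates the gap was 12.3, 14.8 and 8.55 points, a mean of 11.9 ± 3.15 (SD, n = 3). It had 1 direction in all 3. In the relaxed pooled list 51 of 54 large and 36 of 39 small subunit genes had a summit, a gap of 2.14 points, and over the full replicate lists it was 0.902 ± 2.78 points (SD, n = 3), no larger than its spread. When a region had to be overlapped by the strongest regions of a pair of replicates, the gap was 9.97 points without replicate 1, 9.97 without replicate 2 and 9.26 without replicate 3. It was 11.1 points when each region counted only for the coding gene of the nearest start. The occupied genes of both subunits had similar signal, with a median of 450.7 over the 46 large and 479.3 over the 26 small subunit genes, and the ratio of these medians was 1.03 ± 0.199 in the replicates (SD, n = 3).

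Ribosomal protein genes lie in dense parts of the genome, and neighbours share regions, so occupancy was also taken in strata. A start of another gene, coding or not, lay within 1000 bp for 72 of the 93, and 61 of those were occupied (84.7%), against 36.7% of other protein-coding genes with such a neighbour. Of the 21 with no such neighbour 11 were occupied (52.4%, interval 29.8 to 74.3), against 13.3% of the 7198 other genes without one. Among genes with a single annotated start, 33 of 48 ribosomal protein genes were occupied (68.8%) against 19.4% of others, and among genes with more than 1 start 39 of 45 were (86.7%) against 38.9%. By chromosome arm, 13 of 19 were occupied on 2L, 15 of 21 on 2R, 12 of 14 on 3L, 16 of 23 on 3R, and 15 of 15 on X, and RpS3A, the only member on chromosome 4, was occupied too. The share of all protein-coding genes was not taken by arm. None of the 9 weaker copies without an optimal region, described further on, lies on X, so nothing is read from the counts by arm. Small nucleolar RNA genes, whose RNAs guide modification of ribosomal RNA and are cut from introns, lie on the same strand inside 29 of the 93 genes. Of these hosts 25 were occupied (86.2%), against 47 of the 64 ribosomal protein genes without one (73.4%). The 9 weaker copies without an optimal region are all among the 64. The 2 shares thus differ in copies as well as in hosting, and a tie to hosting was not tested.

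The signal value is the authors' own measure of each region, on a scale that no source used here states, so values were compared only within a list. The optimal signal at the 72 occupied ribosomal protein genes ran from 191.8 to 1597, with a median of 475.9 and quartiles of 327.9 and 640.0. The other 3397 occupied protein-coding genes had a median of 372.2, a ratio of 1.28. In the strongest regions of the replicates the ratio was 1.55, 1.16 and 1.21, a mean of 1.31 ± 0.214 (SD, n = 3), above 1 in 3 of 3 replicates. Among the 3210 optimal regions of higher signal alone the ratio turned to 0.985, and in the relaxed pooled list it was 2.18. Most of these genes had regions of middle to high signal. There were 54 of the 72 among the 3210 optimal regions of higher signal, 13 among the 642 highest (10 large and 3 small subunit genes), and the highest of all, at RpS27, ranked 141. The same counts were not taken for the other 3397 occupied genes. Their median of 372.2 also lay above the median of all optimal regions, 318.4, so these counts do not set ribosomal protein genes apart. The difference in level was not seen among genes that lie alone, with every other gene's start more than 1000 bp away, where the median was 318.0 over 11 ribosomal protein genes and 334.5 over 956 others. It was seen when each region counted only for the coding gene of the nearest start, with medians of 479.3 over 68 and 355.0 over 2533. Among genes with 1 annotated start the medians were 450.9 over 33 and 363.7 over 1975.

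**Figure D2:**
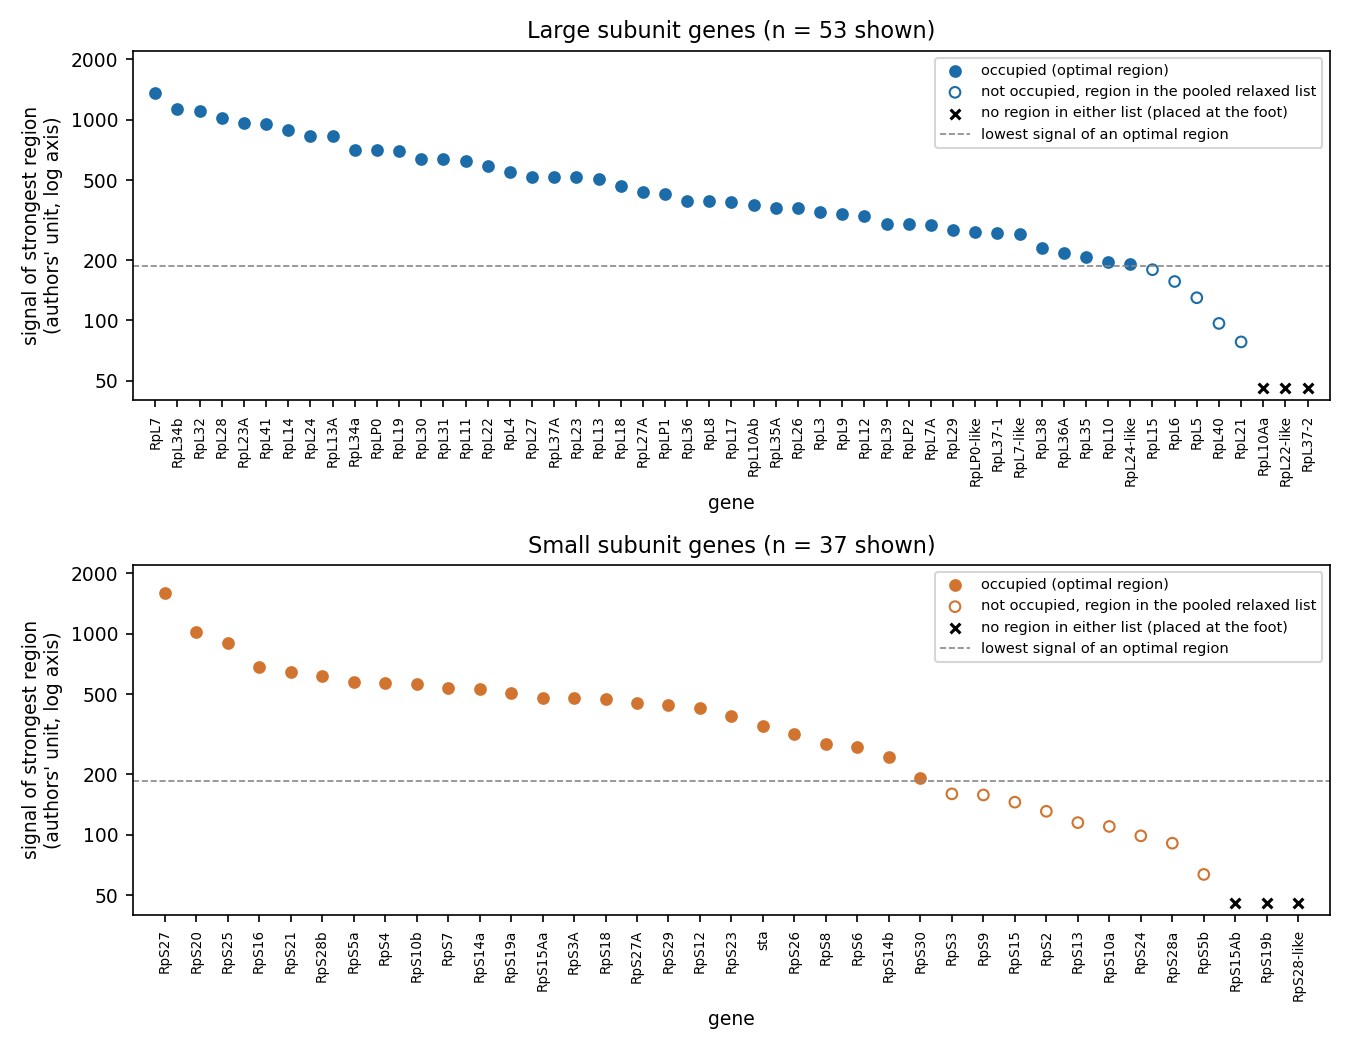
Signal of the strongest region at 90 of the 93 genes, on a log axis in the authors' unit, with the large subunit genes above and the small subunit genes underneath. Filled points are occupied genes and open points have a region in the relaxed pooled list alone; signal falls smoothly across the dashed line at 186.2, the lowest signal of an optimal region.

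The 10 genes of highest signal were 7 of the large and 3 of the small subunit. RpS27 (FBgn0039300), a zinc-binding protein of the small subunit, had a signal of 637.6, 483.9 and 484.3 in replicates 1, 2 and 3 and 1597 in the optimal list, with the summit at 3R:25247521, 7 bp upstream of the start. RpL7 (FBgn0005593) had 529.4, 486.6 and 355.5, and 1357 in the optimal list, with the summit at 2L:10201037, 33 bp downstream of the start. The 3 replicates placed the summit within 7 bp of each other at RpS27 and within 9 bp at RpL7, both narrow spans among these genes. RpL34b (FBgn0037686) had 349.4, 433.0 and 367.2 in the replicates and 1128 in the optimal list, 93 bp upstream. RpL32 (FBgn0002626), the gene long used under the name rp49 as a loading standard for fly RNA, had 322.9, 441.6 and 377.9, and 1100 in the optimal list, 112 bp upstream. RpS20 (FBgn0019936) had 256.0, 425.5 and 326.1, and 1017 in the optimal list, 154 bp upstream. The summits at RpL34b and RpL32 moved more between replicates, over 71 and 61 bp.

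The next genes lay close together in signal. RpL28 (FBgn0035422), which hosts 5 small nucleolar RNA genes, had 390.7, 296.1 and 312.1 in the replicates and 1013 in the optimal list. RpL23A (FBgn0026372) had 395.2, 287.0 and 270.4, and 966.5 in the optimal list. RpL23A is the only gene of the 10 whose region lay within 500 bp of no other coding start, and its protein is known to sit by the exit of the tunnel through which the nascent chain leaves. RpL41 (FBgn0066084), the smallest ribosomal protein, had 342.2, 326.3 and 286.7, and 954.5 in the optimal list. RpS25 (FBgn0086472) had 252.1, 343.1 and 285.4, and 901.3 in the optimal list. All 10 ranked between 45 and 929 in every replicate. The other 62 occupied genes had optimal signals from 191.8 at RpS30 and 191.9 at RpL24-like to 884.2 at RpL14, so the weakest lay just above the lowest optimal region at 186.2.

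Promoter sequences of 6 of these genes and of a pair of copies, RpS28b and RpS28a, are given beside the results on position and on shared elements. The summits of RpL7, RpL32 and RpS20 lie outside the bases printed. Each runs from 100 bases before an annotated start to 20 bases from the start on, on the gene's own strand and 5′ to 3′, in RefSeq's copy of the dm6 assembly. RpL7 is shorter, since an exon of a neighbour lies upstream. Capitals mark polypyrimidine initiators, the DREF palindrome, the BEAF-32 core, the Motif 1 core and the E-box, with the letters searched given further on.
RpS27 (chr3R:25247495-25247614, minus strand): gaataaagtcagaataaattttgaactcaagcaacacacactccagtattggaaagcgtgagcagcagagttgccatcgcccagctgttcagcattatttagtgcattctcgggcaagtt
RpL7 (chr2L:10200975-10201023, plus strand): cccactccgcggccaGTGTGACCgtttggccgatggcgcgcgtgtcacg
RpL34b (chr3R:9401207-9401326, minus strand): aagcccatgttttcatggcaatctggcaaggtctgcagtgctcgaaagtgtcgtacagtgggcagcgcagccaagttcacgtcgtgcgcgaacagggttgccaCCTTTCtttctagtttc
RpL32 (chr3R:30046142-30046261, minus strand): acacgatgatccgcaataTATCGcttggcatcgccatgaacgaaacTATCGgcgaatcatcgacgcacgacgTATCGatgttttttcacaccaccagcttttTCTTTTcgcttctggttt
RpS20 (chr3R:20822081-20822200, plus strand): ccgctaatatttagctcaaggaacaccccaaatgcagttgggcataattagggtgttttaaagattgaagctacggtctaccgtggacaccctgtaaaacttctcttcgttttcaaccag
RpL28 (chr3L:3222941-3223060, minus strand): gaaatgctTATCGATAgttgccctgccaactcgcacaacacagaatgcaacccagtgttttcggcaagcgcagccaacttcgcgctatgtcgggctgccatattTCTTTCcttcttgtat
RpS28b (chrX:9554523-9554642, plus strand): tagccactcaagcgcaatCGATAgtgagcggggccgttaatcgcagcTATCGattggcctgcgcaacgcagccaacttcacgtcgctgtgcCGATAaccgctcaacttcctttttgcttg
RpS28a (chr3R:30022629-30022748, minus strand): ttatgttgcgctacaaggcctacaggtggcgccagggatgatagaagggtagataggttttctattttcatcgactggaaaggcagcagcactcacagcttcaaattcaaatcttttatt

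Summits at ribosomal protein genes lay closer to the start than summits at other genes. The 72 genes held 83 optimal summits, 1 at each of 61 genes and 2 at each of 11, and no summit served 2 of them. The median summit stood 42 bp upstream (-42 bp, quartiles -96 and -9.5), against -141 bp (quartiles -248 and -68) for 3943 summits at other protein-coding genes and -138 bp for 42 at mitochondrial ribosomal protein genes. Within 50 bp of a start lay 46 of the 83 (55.4%), against 13.4% at other genes. In the strongest regions of the replicates the median was -37, -39.5 and -41 bp, a mean of -39.2 ± 2.02 bp, against -142 ± 6.81 bp at other protein-coding genes (SD, n = 3 each). The share within 50 bp was 51.8% ± 3.37 against 13.3% ± 1.32 (SD, n = 3 each). In both measures every replicate's value for ribosomal protein genes lay outside the range of the values for other genes.

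Downstream reach was short as well. In the optimal list the summit farthest into a gene was 36 bp downstream of the start, and the 83 held none beyond 50 bp downstream, where 267 of the 3943 summits at other genes stood (6.77%). In the strongest regions of the replicates 1 of 83, 1 of 78 and 2 of 80 summits lay beyond 50 bp downstream, with the farthest at RpS30 in replicate 1, against 6.72%, 7.45% and 8.29% at other genes. The most distant summit upstream was at -428 bp. Large and small subunit genes had the same placement in the optimal list, with medians of -42 and -41.5 bp, and in the replicates the means were -46.7 ± 8.74 and -32.8 ± 6.83 bp (SD, n = 3 each), with the large subunit genes farther upstream in 2 of 3. The summits were as close with neighbours set aside. When each region counted only for the coding gene of the nearest start, the median was -37 bp over 73 summits at ribosomal protein genes and -115.5 bp over 2838 at others. Among genes that lie alone, as defined above, it was -42 bp over 12 and -159 bp over 1101. Genes with 1 annotated start had their summits somewhat farther upstream, at a median of -56.5 bp over 36 at ribosomal protein genes and -146 bp over 2159 at others. Within 50 bp of that start lay 47.2% and 10.8% of these summits.

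**Figure D3:**
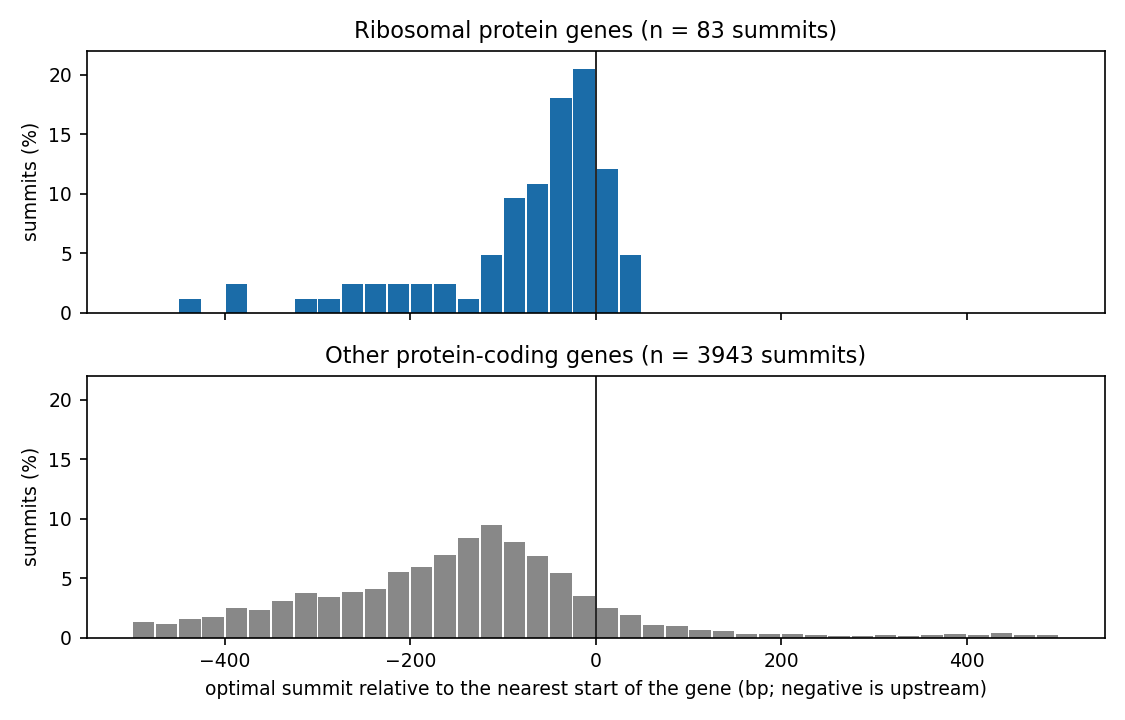
Distance of each optimal summit from the nearest start of the gene, in bins of 25 bp, with negative values upstream; the vertical axis is the percent of summits. The 83 summits at ribosomal protein genes gather just upstream of the start around a median of -42 bp, and the 3943 at other protein-coding genes spread around -141 bp.

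The replicates placed the summit of a given ribosomal protein gene within a small distance. In each replicate the summit nearest to the gene's strongest optimal summit was taken, a choice that can shorten the span. For the 71 occupied genes with a summit in all 3 replicates, these summits spanned a median of 36 bp (quartiles 16 and 60.5). The span was at most 50 bp in 45 of them. The widest span was 199 bp at RpS30, which encodes a ribosomal protein fused to a ubiquitin-like domain. RpL28 and RpS28b spanned 5 bp, and RpS25, which had its summit 57 bp upstream, spanned 6 bp.

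About as many occupied ribosomal protein genes shared their region with a neighbour as did not. The strongest region of 37 of the 72 reached another protein-coding gene too, with a start no more than 500 bp from the summit, and 35 had it to themselves. Among the 37 the ribosomal protein gene had the nearer start in 32. Neither share was taken over other occupied protein-coding genes, so whether these counts are high or low is not known. RpS27 shared its region with Nup37, a nuclear pore gene whose start lay 137 bp from the summit. RpL28 shared with eIF1, a translation initiation factor gene, RpL14 with Nelf-E, a subunit of the negative elongation factor, and RpS6 with bys, a gene of small subunit assembly. RpL13 shared a region of signal 505.2 with Dref, the gene of DREF itself, with the summit 22 bp upstream of RpL13 and 62 bp upstream of Dref. The neighbour was nearer at 5, among them RpL10Ab, RpLP0-like, RpL7-like and RpL24-like, where the summit stood 60 to 382 bp upstream of the ribosomal protein gene.

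Copies of the same protein differed in occupancy. Flies carry a second or further gene for several ribosomal proteins, and in several such groups the second copy is known for use in the germline. Symbols that differ only by a final letter, number or -like put 27 genes into 13 groups, 18 of them occupied (66.7%), beside 54 of the 66 genes without a copy (81.8%). In 5 groups every member was occupied, in 8 only the copy of higher signal was, and no group was left with none. Among the genes without a copy, 35 of 40 of the large subunit (87.5%) and 19 of 26 of the small subunit (73.1%) were occupied. Which copy is called stronger was read from these signals, so the order inside a group is a description.

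The groups with all members occupied were RpL34, RpS14, RpL24, RpL7 and RpLP0. RpL34b had 349.4, 433.0 and 367.2 in the replicates, and RpL34a had 218.8, 235.0 and 262.2 with 706.1 in the optimal list, lower in each replicate, and their proteins share 84.0% of residues. RpS14a (162.5, 210.3 and 155.2, and 532.7 in the optimal list) and RpS14b (71.4, 97.9 and 62.8, and 244.4) encode the same 151 residues, with starts at 7933742 and 7934898 on X. No source used here states how reads that match several places were assigned, so the split between RpS14a and RpS14b is uncertain. In the other 3 groups the partner is a diverged protein whose yeast counterpart (Rlp24, Rlp7 or Mrt4) assembles ribosomes and is not part of the mature particle. RpL24 had 271.7, 278.2 and 286.5 (831.2 in the optimal list), and RpL24-like, with 34.8% identity to it, had 43.4, 83.2 and 56.7 (191.9). RpL7-like, 34.1% identical to RpL7, had 47.1, 138.5 and 67.8 (268.7). RpLP0, a protein of the stalk that recruits elongation factors, had 256.5, 249.7 and 211.1 (705.9), and RpLP0-like, with 24.2% identity, had 71.8, 154.1 and 62.2 (274.9). RpL34b, RpS14a, RpL24, RpL7 and RpLP0 were each higher than their partner in 3 of 3 replicates. The regions at RpL24-like, RpL7-like and RpLP0-like were nearer to starts of CG5276, JhI-21 and 14-3-3zeta.

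In the other 8 groups the stronger copy was occupied at a middling level. RpS28b had 265.3, 206.0 and 168.2 in the replicates and 620.0 in the optimal list, while RpS28a, 82.8% identical, had 45.5, 31.9 and 29.3 and 90.8 in the relaxed list, and RpS28-like had a single summit of 31.6 in replicate 1, placed 487 bp from its start. RpL22 had 200.7, 216.9 and 165.2 (585.7 in the optimal list), and RpL22-like, its testis-enriched partner with 44.8% identity, had no summit in any list. RpS5a had 230.3, 182.0 and 153.7 (579.4), while RpS5b, a germline copy with 80.3% identity, had none in replicate 1, 31.1 in replicate 2 and 25.9 in replicate 3. RpS10b had 210.3, 168.6 and 179.3 (560.2), and RpS10a had none, 55.2 and 34.0 (110.0 in the relaxed list). Every weaker copy so far was below its partner wherever it had a value.

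RpS19a had 184.0, 135.2 and 174.5 (508.7 in the optimal list), and RpS19b, 65.8% identical, had 27.3 in replicate 2 and no summit in the others. RpS15Aa had 221.8, 139.4 and 131.8 (480.5), and RpS15Ab, which differs from it in 3 of 130 residues (97.7% identity), had 24.2 in replicate 2 and none in the others. RpL10Ab had 118.8, 101.5 and 142.7 (374.9), and RpL10Aa, 63.9% identical, had no summit in any list. RpL37-1 had 100.7, 110.9 and 75.3 (272.6), and RpL37-2, 75.3% identical, had none in any list either. Among the weaker copies, identity to the partner ran from 24.2% to 100% in the 5 that were occupied and from 44.6% to 97.7% in those that were not.

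**Figure D4:**
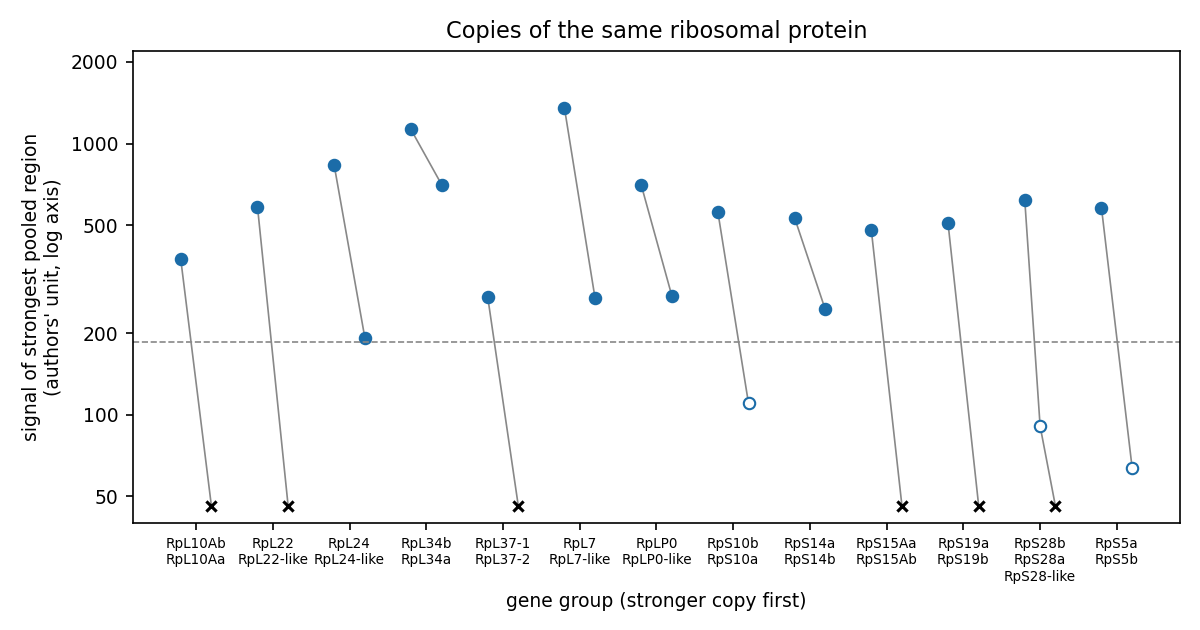
Signal of the strongest region of the relaxed pooled list at each copy in the 13 groups, on a log axis in the authors' unit, with the stronger copy on the left of each line. Filled points are occupied, open points are not, crosses at the foot have no pooled region, and the dashed line is the lowest optimal signal, 186.2.

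The 21 genes without an optimal region were 8 of the large and 13 of the small subunit. Of these, 9 are the weaker copies above and 12 have no copy, and 15 of the 21 still had a region in the relaxed pooled list, with signals from 63.5 at RpS5b to 179.0 at RpL15. A summit was present in the full lists of all 3 replicates at 11 of the 21, and 3 of the 21 (RpL10Aa, RpL22-like and RpL37-2) had none in any list. The replicate values are those of the strongest summit near the gene, which was not always at the same place. In replicates 1, 2 and 3 it stood at -78, 452 and 0 bp at RpS13 and at -161, 2 and -304 bp at RpL21. At RpS15 it stood at 2, 11 and 7 bp. The 12 without a copy all had a relaxed region, and at RpL15, RpS3, RpS9 and RpL6 it was between 156.3 and 179.0, just under the lowest optimal signal of 186.2. RpL15 had 78.8, 89.6 and 59.8 in the replicates, RpS9 had 51.4, 64.1 and 43.0, and RpL6 had 48.9, 63.3 and 51.1. RpS3, a protein of the channel where messenger RNA enters the small subunit, had 31.4, 74.95 and 55.1 (159.9 in the relaxed list), and RpS15 had 47.2, 35.9 and 66.5 (145.4).

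RpS2 had 23.6, 64.9 and 50.2 (130.9 in the relaxed list), and RpL5, which binds 5S ribosomal RNA, had 53.4, 45.95 and 41.0 (129.8). RpS13 had 44.7, 37.9 and 33.4 (114.99), and RpS24 had 23.1, 65.0 and 27.6 (98.8). RpL40, made as a fusion with ubiquitin, had none, 34.2 and 45.8 (96.7), while RpS27A, the other ubiquitin fusion, was occupied with 190.1, 125.7 and 136.9. RpL21 had 42.2, 47.7 and 26.04 (78.2). The nearest optimal summit was far away at RpL15 (1254760 bp), RpL5 (395191 bp) and RpL21 (106374 bp), and 594 bp away at RpS15, the closest of the 21.

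The polypyrimidine initiator was common at these genes and was found at occupied and not occupied members. It was searched on the gene's strand as CCTTTC, or the same word with T as its first base, its last base or both, with the C just before the run of T lying within 5 bases of an annotated start. It stood at 55 of the 93 ribosomal protein genes (59.1%), 31 of the 54 of the large and 24 of the 39 of the small subunit, against 297 of all 13945 protein-coding genes (2.13%) and 2 of 73 mitochondrial ribosomal protein genes. At 48 of the 55 the C lay 2 to 5 bases downstream of the annotated start. Within 10 bases it stood at 75 of the 93 (80.6%), against 4.09% of all protein-coding genes, and within 5 bases of the most upstream start alone at 30 (32.3%) against 1.38%. Of the 55 members with it 45 were occupied (81.8%), and of the 38 without it 27 were (71.1%). With the reach of 10 bases, 63 of the 75 with it (84.0%) and 9 of the 18 without it were occupied, and it stood at 46 of the 54 large (85.2%) and 29 of the 39 small subunit genes (74.4%), an order of the subunits opposite to that at 5 bases. Among other protein-coding genes 81 of 242 with the element were occupied (33.5%), against 24.4% of those without. Of the sequences printed above, RpL34b, RpL32 and RpL28 show it, and RpS27 and RpL7 have it at another of their annotated starts.

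Some known promoter elements were frequent around the summits. Windows of 101 bp, reaching 50 bp to each side of the 83 summits, were searched on both strands and set beside those at 2749 other optimal summits within 500 bp of a coding start. The palindrome TATCGATA, bound by DREF, stood in 16 windows (19.3%, interval 11.4 to 29.4) against 3.60%, and CGATA, the core bound by BEAF-32, which lies inside that palindrome, in 53.0% against 22.1%. The core of Motif 1, GGTCACAC, bound by M1BP, stood in 7 (8.43%) against 1.56%, and the E-box CACGTG, bound by Myc and Max, in 4 (4.82%) against 0.837%. The TATA box TATAAA stood in 9.64% against 22.04%, and the GAGA element GAGAG in 6.02% against 8.95%. In the strongest regions of the replicates the palindrome stood at 15.7% ± 2.90 of summits at ribosomal protein genes and 3.37% ± 0.399 of others, the BEAF-32 core at 43.9% ± 8.96 and 21.9% ± 1.57, the Motif 1 core at 9.51% ± 1.63 and 1.80% ± 0.284, and the TATA box at 10.4% ± 3.26 and 22.4% ± 1.39 (SD, n = 3 each).

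Position and base composition moved with these shares. The median GC content of the windows was 46.5% at ribosomal protein genes and 32.7% at other promoters. Among summits within 50 bp of a coding start it was 47.5% over 51 windows at ribosomal protein genes and 42.6% over 486 at others. In these windows the palindrome stood in 17.6% (interval 8.40 to 30.9) against 10.7% (8.09 to 13.8), the BEAF-32 core in 56.9% against 40.5%, the Motif 1 core in 13.7% against 4.73%, the TATA box in 3.92% against 10.3%, and the E-box in 7.84% against 0.823%. The exact 95% intervals of the palindrome, the BEAF-32 core (42.2 to 70.7 against 36.1 to 45.0), the Motif 1 core (5.70 to 26.3 against 3.02 to 7.02) and the TATA box (0.478 to 13.5 against 7.73 to 13.3) all overlap there. Overlap of intervals is not a test, so a difference in these 4 is neither called nor excluded among summits this close to a start. Those of the E-box, found in 4 windows of each kind, ran from 2.18 to 18.9 against 0.225 to 2.09. The part of GC content in these shares was not tested.

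**Figure D5:**
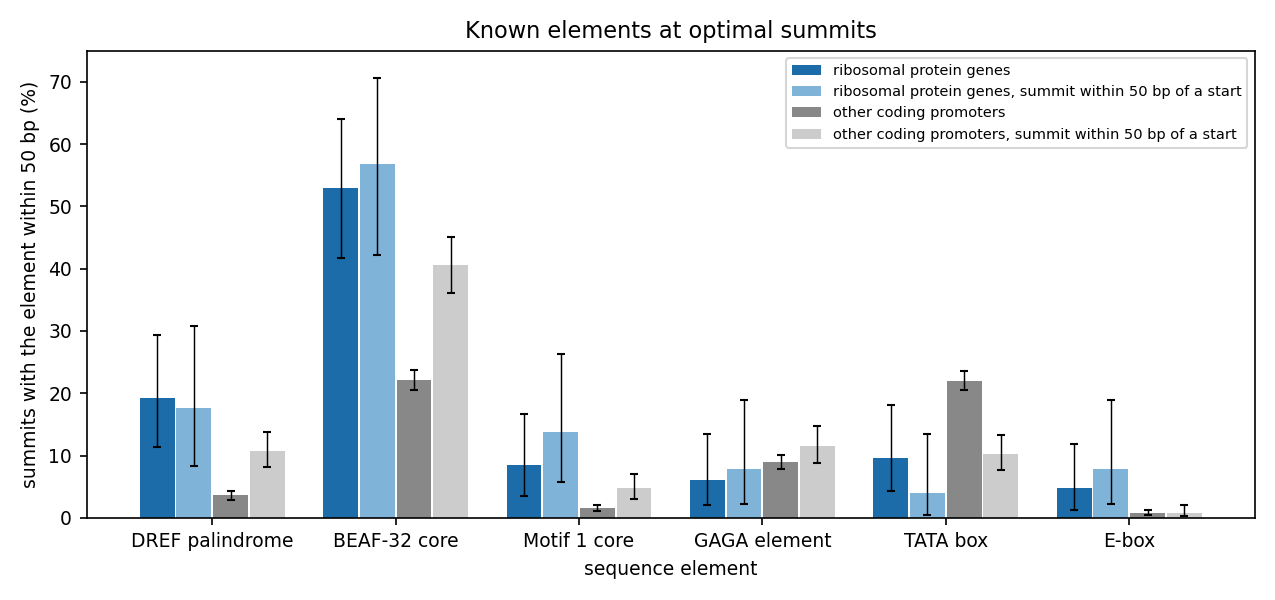
Percent of optimal summits with a known element within 50 bp, with exact 95% binomial intervals, for summits at ribosomal protein genes (blue) and other coding promoters (grey); pale bars are the summits within 50 bp of a coding start. The DREF palindrome stands at 19.3% against 3.60% over all summits and at 17.6% against 10.7% among those close to a start.

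The DREF palindrome lay near the summits of 16 genes, 11 of the large and 5 of the small subunit, among them RpL10Ab, RpL19, RpL26, RpL27, RpL28, RpL36, RpL36A, RpL37-1, RpL39, RpL41, RpS5a, RpS12, RpS15Aa, RpS25 and RpS29. Its median place relative to the start was -39.5 bp, and members with it had a median signal of 462.7, close to the 475.9 of the 56 occupied members without. The Motif 1 core lay near the summits of 7 genes, among them RpL7, RpL27A, RpL30, RpL37A, RpLP0 and RpLP1, at a median of -7 bp from the start. It can be seen in the RpL7 sequence above, as its reverse complement. The E-box lay near those of RpL7, RpL11, RpL24 and RpL29. In promoters reaching from 250 bases before to 50 after the most upstream start, the palindrome stood in 24 of the 72 occupied members (33.3%) and 4 of the 21 not occupied (19.0%), against 10.2% of all protein-coding genes. The E-box stood there in 15 of 72 (20.8%) and 1 of 21, against 5.34%, and the Motif 1 core in 12 of 72 (16.7%) and 4 of 21 (19.0%), against 8.71%. Over the other 3397 occupied genes alone the palindrome stood in 16.6%, the E-box in 6.89% and the Motif 1 core in 13.3%. The TATA box stood in the promoters of 40 of the 72 occupied members (55.6%) against 51.3% of all protein-coding genes, so its lower share in the summit windows was not seen over whole promoters.

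Short words held the same elements and others. Of all words of 6 bases, counted once per window with their reverse complements, TATCGA (32.5% against 11.9% of other promoter windows), ATCGAT (28.9% against 8.77%) and CGATAG (27.7% against 9.09%) had the largest excess at ribosomal protein genes, and all 3 overlap the palindrome or the BEAF-32 core. AGTGTG followed with 22.9% against 5.89%. CCGGAA stood in 14 of the 83 windows (16.9%) against 1.96%. Singled out after its values were seen, CCGGAA stood in the promoters of 36 of the 72 occupied members and 3 of the 21 not occupied (14.3%), against 8.87% of all protein-coding genes, and no support is drawn from this, since the word was picked at occupied members.

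Other genes of the ribosome were occupied to differing degrees, and each count stands beside 24.9% of all protein-coding genes. Of 7 translation elongation factor genes 4 were occupied. eEF1gamma had a signal of 1062, eEF1alpha1 had 451.8, eEF5, which helps the ribosome through proline stretches, had 352.5, and eEF2, the translocase, had 197.8. eEF1alpha2, eEF1beta and eEF1delta had summits in the relaxed list alone, at 72.7, 59.7 and 155.0. Of 24 ribosome assembly genes 15 were occupied, led by eIF6 (2194), which keeps new large subunits from joining too early, Ns2 (1393), a nucleostemin-type GTPase, and Rrp1 (1101). Rrp1 entered the list by its name, which in flies stands for a DNA repair endonuclease, and it is counted in the 15 of 24. RNA polymerase I, which makes the large ribosomal RNAs, had 2 of 8 genes occupied, Polr1D (338.3) and Polr1F (221.1), against the 24.9% of all protein-coding genes, and the 6 others (Polr1A, Polr1B, Polr1C, Polr1E, Polr1H and Tif-IA) were not. Among 6 genes for factors known at these promoters or for their expression, M1BP (838.1), Dref (505.2), Mnt (398.2) and Max (373.6) were occupied, while Myc and Trf2 had relaxed regions alone, at 160.3 and 168.9.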

How the data were processed

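Per the deposited notes, the authors called regions against a control alignment: a relaxed list per replicate, a relaxed list on pooled reads, and an optimal list thresholded on the irreproducible discovery rate. No source used here names the caller, the aligner or how reads were placed, and read depth is unknown, so precision is given as spread over replicates or as counting intervals. Chromatin was sonicated to 200 to 800 bp, per the labels. The deposited signal value has no stated scale. Summits were read from the deposited summit offset, and positions are on dm6, counted from 1. The dm3 lists were not used here.

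Starts came from Ensembl release 115 (BDGP6, the dm6 assembly) and sequence from RefSeq's copy. Intervals are exact (Clopper-Pearson). Protein identity is over the shorter protein, from translated coding sequence in a global alignment (BLOSUM62, gap costs 11 and 1). The members, lists and rules were chosen with earlier results of these data known. Genes named in full are the 10 of highest optimal signal, all copies and all not occupied. Of the members, 3 enter every count but are not reported by name here. Python 3.11.15, pandas 2.3.3, scipy 1.17.1 and Biopython 1.88 were used. The distance, initiator, element and word-counting steps were tested on simulated data, and the other steps were not. The other gene lists name the 3 of highest signal, or every gene where a list holds at most 8.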

Additional observations from a re-analysis of the deposited data

How the results depend on the processing

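The number of occupied ribosomal protein genes (72) stayed within 1.5 times under all 10 alternatives, from 54 among the 3210 regions of higher signal to 87 in the relaxed pooled list, and was 65 to 67 with a replicate left out. The gap between large and small subunit genes (18.5 points) kept its direction in all 10 and shrank by more than the replicate SD in 7. It was 13.4 points within 1000 bp, 11.7 among regions of higher signal, 2.14 in the relaxed list, 9.26 to 9.97 with a replicate left out, and 11.1 by the nearest start. The signal ratio (1.28) turned to 0.985 among the regions of higher signal and was 2.18 in the relaxed list. The cause was not tested. It was 1.19 to 1.21 with a replicate left out. The median summit (-42 bp) stayed upstream in all 11 alternatives. It was -38 bp within 250 bp, -45 within 1000 bp, -35 among regions of higher signal, -45 in the relaxed list, -40.5 to -39 with a replicate left out, -38 for the most upstream start, -37 by the nearest start, -39 without members ending in -like and -38 for the strongest summit of each member. The initiator count (55) was 75 within 10 bases and 30 at the most upstream start alone. Leaving out a replicate kept 5173 to 5348 of the 6420 optimal regions. No paired analysis was possible because the 3 replicates form 1 group. Replicate lists stem from the reads behind the optimal list, so a shared direction is no independent check, and a gene with no region may lie below the authors' calling threshold.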
